A study of Mus musculus with 69 samples.

Results

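Scavenger receptors and C-type lectins of phagocytes were followed in mouse lung after nano-sized titanium dioxide had been instilled into the airways. The set held 10 genes, Marco, Msr1, Cd36, Olr1, Mrc1, Clec4d, Clec4e, Clec4n, Clec7a and Clec5a, and its probes were those whose accession on the array maps to one of these RefSeq symbols. Of the 10 genes, 9 had a probe, 13 probes in all, among 18656 genes tested. Msr1 and Clec5a had 3 probes each and every other gene had 1. No probe was matched to Clec7a, which was not analysed here.

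Female C57BL/6 mice, 5 to 7 weeks old on arrival and kept for a further 1 to 3 weeks, received 1 intratracheal instillation. The suspension held 18, 54 or 162 µg of NRCWE-025 or of NRCWE-030, and control mice got the vehicle, water with 2% serum, alone. Lungs were taken on day 1 or day 28. RNA of a piece of each lung (Cy5) was hybridised with a universal mouse reference RNA (Cy3) on a 2-colour Agilent array, giving 69 arrays in 14 groups. Every group had 5 arrays except NRCWE-025 at 162 µg on day 28, which had 4. Both materials share the vehicle lungs of a day, so their comparisons with vehicle are not independent of each other. The labels say that each array held the RNA of an individual mouse. Neither material's structure is described here, since the labels give only the code names.

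Phagocytes meet inhaled particles with scavenger receptors and with C-type lectins on their surface. Scavenger receptors bind polyanionic surfaces, modified lipoproteins and dying cells and carry them into the cell, and Marco and Msr1 are known as the receptors through which alveolar macrophages take up unopsonised particles. The signalling C-type lectins recognise sugars and glycolipids of microbes and products of damaged cells, and most of them pass the signal on through adaptor chains with an activation motif to the kinase Syk. Mrc1, the mannose receptor, is a C-type lectin by structure and was counted here with the scavenger receptors, as a receptor for uptake.

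Clec4n, Clec4d and Clec4e lie side by side on chromosome 6 in that order, and Clec7a and Olr1 are neighbours further along the same chromosome. RefSeq promoter windows (GRCm38.p6) were found for 8 of the 10 genes, not for Msr1 and Clec4n. The 250 bases before the start of transcription are shown for Clec4d and Clec5a, the genes with a window that were called in a comparison below, and for Clec4e, the neighbour of Clec4d. Capitals mark the letters GAGGAA or their reverse complement TTCCTC, a core sequence of the myeloid transcription factor PU.1.
Clec4d, chr6:123261857-123262106, plus strand: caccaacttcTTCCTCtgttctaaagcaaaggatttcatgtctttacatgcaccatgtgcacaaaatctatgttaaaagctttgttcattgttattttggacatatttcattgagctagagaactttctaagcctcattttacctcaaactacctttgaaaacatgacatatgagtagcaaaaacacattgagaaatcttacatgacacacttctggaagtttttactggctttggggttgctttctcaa
Clec4e, chr6:123289872-123290121, minus strand: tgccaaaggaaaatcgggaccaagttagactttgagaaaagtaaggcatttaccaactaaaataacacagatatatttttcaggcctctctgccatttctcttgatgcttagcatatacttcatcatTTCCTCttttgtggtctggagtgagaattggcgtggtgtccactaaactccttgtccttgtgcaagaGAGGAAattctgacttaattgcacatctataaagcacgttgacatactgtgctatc
Clec5a, chr6:40585806-40586055, minus strand: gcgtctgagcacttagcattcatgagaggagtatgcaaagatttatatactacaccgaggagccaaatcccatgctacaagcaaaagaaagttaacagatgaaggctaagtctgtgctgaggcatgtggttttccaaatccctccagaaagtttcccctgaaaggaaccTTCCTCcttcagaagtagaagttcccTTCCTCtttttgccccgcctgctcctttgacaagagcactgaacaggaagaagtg

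The Clec4d window held 1 such match, at -240 from the start of transcription, while the Clec4e window held 2, at -123 and -56, and the Clec5a window 2, at -81 and -55. Across the set, 7 of the 8 windows held GAGGAA on either strand, the exception being Cd36, against 23.3% of all 32817 windows of that length. The letters TTNCNNAA, a loose form of the C/EBP motif, were in 6 of the 8 windows and in 36.8% of all windows. TGANTCA, the AP-1 motif, was in that of Olr1 alone, against 6.75% of all windows. Both strands were searched for each motif, no match of one was masked for another, and a match describes letters, not binding.

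All values below are log2 ratios of lung to reference RNA, so that levels can be compared between arrays for 1 gene and not between genes. Differences are given as log2 differences ± SE, and a gene is named as called where its Benjamini-Hochberg adjusted p, from limma over all 18656 genes, was below 0.05. P-values set a difference of group means against the spread between lungs, which was pooled over the groups of a fit and moderated across genes. The small number of arrays limits the precision. On 65 of 69 arrays at least 1 probe of Msr1 was well above background in the lung channel, on 68 that of Clec4d, and on 41 that of Olr1. The remaining 6 genes were above background on all 69. In the reference channel Olr1 and Mrc1 were above background on 1 array, so that their ratios have a reference near the floor.

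The response to NRCWE-030 at 162 µg on day 1 was the one in which genes of the set were called against vehicle: 4 of 9 were, and all 4 were higher than in the vehicle lungs: the lectins Clec4d, Clec4n and Clec5a and the scavenger receptor Msr1. Over all genes tested, 319 or 1.71% were called in that comparison, and 1.23% were called and higher. The set was chosen with earlier results of these data known, so a count above these shares is no test of it. The median log2 difference of the 9 genes was 0.45, against 0 over all genes. In the same 4 genes every treated array lay above every vehicle array, which held in either direction for 4.56% of all genes. For Clec5a the margin was narrow, with the lowest treated array at -0.16 and the highest vehicle array at -0.17. These 2 values came from different probes of the gene. The other 5 genes overlapped with the vehicle arrays. In whole lung, more cells that carry a transcript and more transcript per cell cannot be told apart, and this holds for each result below.

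Clec4d encodes MCL, a lectin that binds mycobacterial glycolipid and pairs with the product of Clec4e. The 5 vehicle lungs of day 1 read -1.62, -2.19, -2.09, -2.02 and -1.56. The 5 lungs given 162 µg of NRCWE-030 read -0.50, -0.16, -0.49, -1.23 and -0.59. The groups did not overlap, with 4 of the 5 treated lungs close together and the remaining one nearer to the vehicle lungs. The difference was 1.30 ± 0.20 (95% interval 0.87 to 1.73, n = 5 and 5, limma adjusted p = 0.00259), a fold of 2.46.

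Clec4n encodes Dectin-2, a receptor for mannose-rich fungal sugars that signals through the Fc receptor gamma chain. It read 1.47, 2.27, 2.49, 2.53 and 2.48 in the vehicle lungs and 3.71, 3.82, 3.11, 3.56 and 3.07 at 162 µg of NRCWE-030. No arrays overlapped, and 1 vehicle lung, at 1.47, stood below the other 4. The difference was 1.21 ± 0.22 (95% interval 0.75 to 1.66, limma adjusted p = 0.00646). Without the low vehicle lung it was 1.01, and Clec4n was still called.

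Msr1 encodes the class A macrophage scavenger receptor. Its vehicle lungs read -1.22, -1.04, -1.55, -1.43 and -1.01, and the treated lungs -0.04, -0.12, -0.50, -0.48 and -0.21. Here too the groups were apart, by at least the gap between -1.01 and -0.50. The difference was 0.98 ± 0.18 (95% interval 0.61 to 1.35, limma adjusted p = 0.00686). Each of its 3 probes was called when tested alone, with differences of 1.1 ± 0.21, 0.66 ± 0.16 and 1.01 ± 0.16. They were well above background on 64, 30 and 57 of the 69 arrays, so the smallest of the 3 differences came from the probe that was dim on most arrays.

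Clec5a encodes MDL-1, a myeloid lectin that signals through the adaptor DAP12, the product of Tyrobp. As the median of its 3 probes it rose by 0.45 ± 0.10 (95% interval 0.24 to 0.65, limma adjusted p = 0.0242). The call was lost in 8 of 20 fits that left out 1 array, with adjusted p up to 0.0816. The probes did not behave alike. Probe 3, above background on all 69 arrays, read -0.17, -0.71, -0.67, -0.33 and -0.40 in the vehicle lungs and 0.84, 0.99, 0.67, 0.57 and 0.66 in the treated ones. That is a difference of 1.20 ± 0.16 (adjusted p = 0.000675, limma over 27248 probes). Probes 1 and 2 were well above background on 10 arrays and on 1 array, and differed by 0.20 ± 0.09 and 0.16 ± 0.08, neither of which was called. The median of the 3 fell on a dim probe, whose signal gives a bound only, in all 5 treated lungs, and on probe 3 in 3 of the 5 vehicle lungs. Mean levels of probe 3 on day 1 were -0.46 ± 0.23 (SD, n = 5) in vehicle lungs, -0.29 ± 0.32 at 18 µg of NRCWE-030, 0.13 ± 0.31 at 54 µg and 0.75 ± 0.17 at 162 µg.

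**Figure D1:**
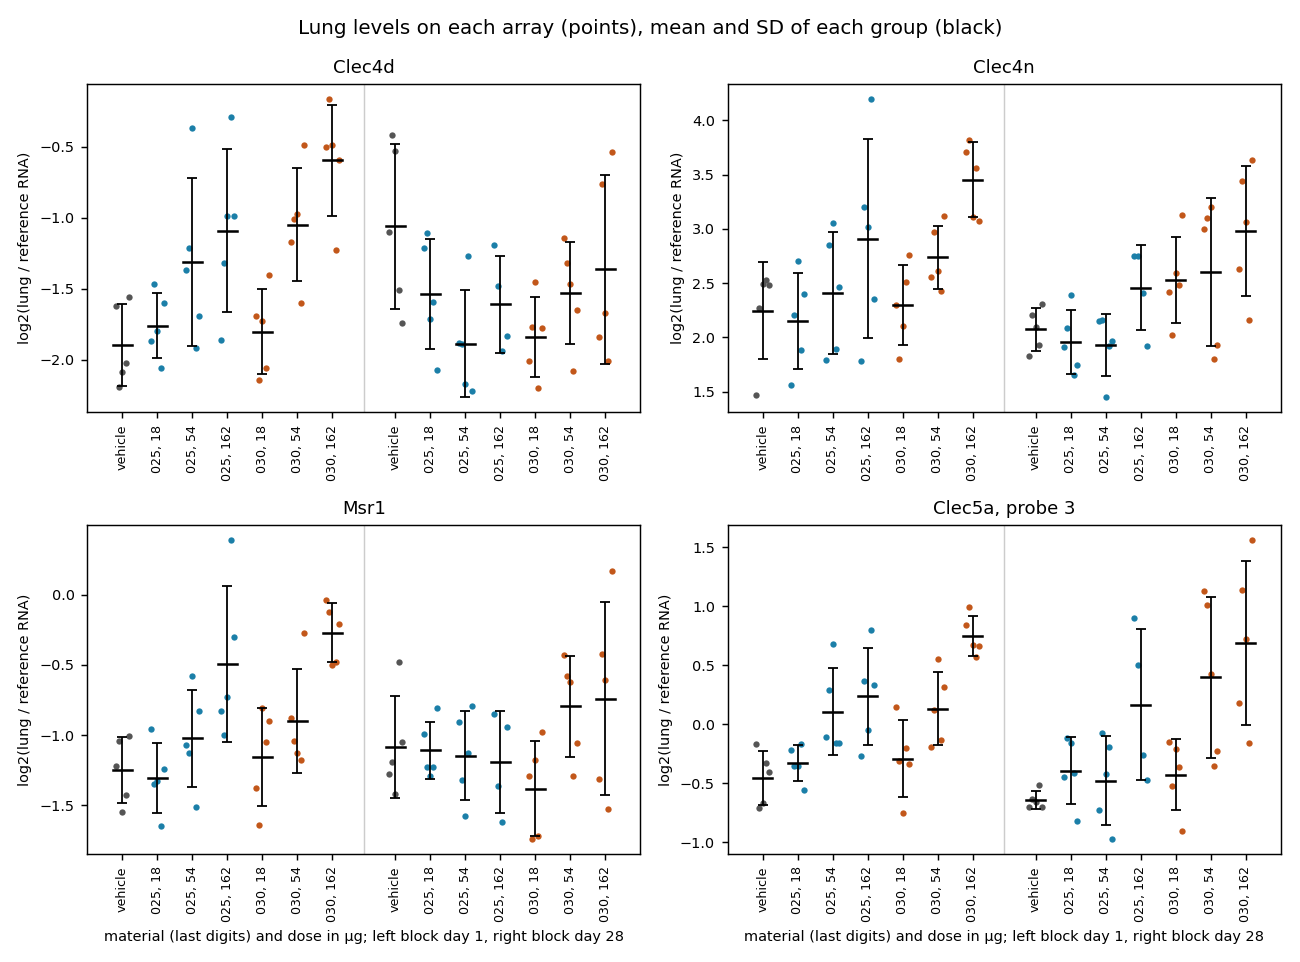
Log2 ratio of lung to reference RNA on each of the 69 arrays (points) for Clec4d, Clec4n, Msr1 and the bright probe of Clec5a, in the vehicle lungs and at each dose in µg of NRCWE-025 and NRCWE-030 on day 1 and day 28. Black lines are group means with SD. At 162 µg of NRCWE-030 on day 1 all treated points lie above all vehicle points of that day in the 4 panels.

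Clec4e, which encodes Mincle, a receptor for trehalose glycolipids and a protein of dying cells, read between -3.11 and -2.27 in the vehicle lungs and between -2.48 and -1.76 in the treated ones. It was higher by 0.69 ± 0.19 and not called (limma adjusted p = 0.0796), with 4 of the 5 treated lungs above the highest vehicle lung. Its mean was -2.73 ± 0.30 (SD, n = 5) in vehicle lungs, -2.79 ± 0.34 at 18 µg, -2.41 ± 0.38 at 54 µg and -2.04 ± 0.28 at 162 µg. The scavenger receptors Marco, Cd36 and Olr1 and the mannose receptor Mrc1 differed by 0.40 ± 0.27, -0.07 ± 0.14, -0.04 ± 0.14 and 0.06 ± 0.26. Their adjusted p ran from 0.61 to 0.971. The 95% interval of Cd36, the fatty acid and thrombospondin receptor, went from -0.36 to 0.23, and that of Marco reached 0.97. Of the 5 scavenger receptors 1 was therefore called, and of the 4 measured signalling lectins 3, against 1.71% of all genes. Whether the kinds of receptor differed was not tested.

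**Figure D2:**
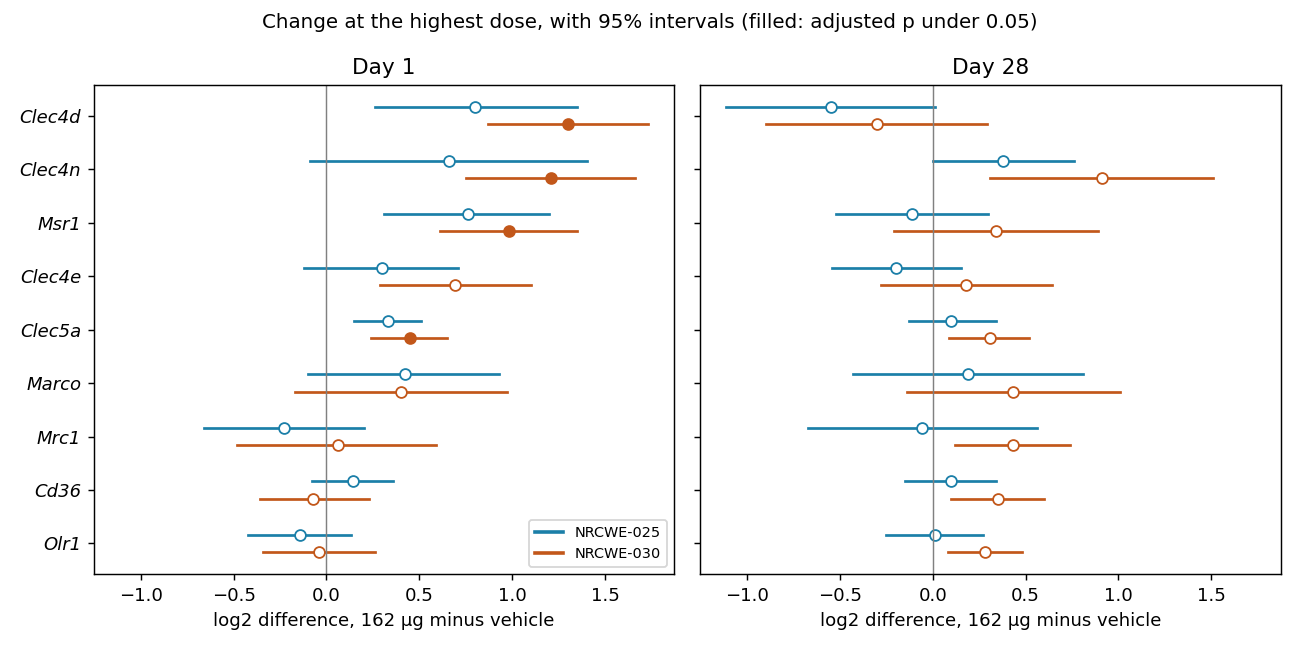
Log2 difference between lungs given 162 µg and vehicle lungs of the same day for the 9 measured genes, with 95% intervals, for NRCWE-025 and NRCWE-030 on day 1 and day 28. Filled points have a limma adjusted p below 0.05, and these are Clec4d, Clec4n, Msr1 and Clec5a with NRCWE-030 on day 1.

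Arrays had been hybridised on 19 slides and scanned on 11 days, and groups were spread unevenly over both. With slide as a fixed term, Clec4d was called at 162 µg of NRCWE-030 on day 1 (1.38, adjusted p = 0.0423) while Clec4n (0.90, 0.153), Msr1 (0.93, 0.0995) and Clec5a (0.48, 0.186) were not. With scan day as a fixed term none of the 4 was called: Clec4d was at 1.20 (adjusted p = 0.139), Clec4n at 0.96 (0.151), Msr1 at 0.86 (0.15) and Clec5a at 0.46 (0.219). With slide as a random term all 4 were called and Clec4e too, at 0.71 (limma adjusted p = 0.0269). Over all genes, 72 were called with slide as a fixed term, 50 with scan day and 495 with slide as a random term. Within the 2 slides that carried 1 treated and 1 vehicle lung each, the differences were 1.07 and 1.52 for Clec4d, and the lowest and highest were 0.62 and 1.18 for Clec4n, 0.51 and 1.39 for Msr1, 0.46 and 0.54 for Clec5a. Within the 2 scan days with both groups they were 0.70 and 1.52 for Clec4d, 0.85 and 1.18 for Clec4n, 0.52 and 1.39 for Msr1, and 0.39 and 0.46 for Clec5a. These scan days held the lungs of the same slides, with a further treated lung on scan day 10, so the 2 sets of differences are not separate. The direction was the same in each of them.

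Over the dose range of NRCWE-030 on day 1, the F-test across vehicle and the 3 doses called Clec4d (limma adjusted p = 0.00525), Clec4n (0.0149) and Msr1 (0.0205), 3 of 9 genes, against 0.959% of all genes. Clec5a had an adjusted p of 0.0696 as the median of its probes and was called in 6 of 11 alternative analyses, among them that without dim probes. Its bright probe 3 alone had an adjusted p of 0.00222 (limma over all probes). Clec4e had an adjusted p of 0.13. Without either of 2 lungs of the 162 µg group, replicates 1 and 2, the test called 1 gene, Clec4d. Mean levels of Clec4d were -1.90 ± 0.28 (SD, n = 5) in vehicle lungs, -1.81 ± 0.30 at 18 µg, -1.05 ± 0.40 at 54 µg and -0.59 ± 0.39 at 162 µg. For Clec4n they were 2.25 ± 0.45, 2.30 ± 0.37, 2.74 ± 0.29 and 3.45 ± 0.35, and for Msr1 -1.25 ± 0.24, -1.16 ± 0.35, -0.90 ± 0.37 and -0.27 ± 0.21. In all 3 genes the mean at 18 µg lay within 1 SD of the vehicle mean. No member was called at 54 or 18 µg of NRCWE-030, where 0.0804% and 0.00536% of all genes were called. The nearest was Clec4d at 54 µg, with 0.85 ± 0.20 (limma adjusted p = 0.114), which was called with slide as a random term (0.87, adjusted p = 0.0386). Its 5 lungs, at -1.17, -1.01, -0.97, -1.60 and -0.49, overlapped with the vehicle lungs in 1 lung.

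NRCWE-025 at 162 µg on day 1 called none of the 9 genes in limma's test, which called 39 genes or 0.209% in all and 2290 at an unadjusted p under 0.05. In Msr1 and Clec5a all 5 treated lungs were above all 5 vehicle lungs, a separation found in either direction for 2.1% of all genes. The margins were narrow. The lowest treated and highest vehicle lungs read -1.0 and -1.01 for Msr1, and -0.15 and -0.17 for Clec5a. Msr1 read -0.83, -1.0, -0.73, 0.39 and -0.30, which is 0.76 ± 0.21 above vehicle (95% interval 0.31 to 1.20, adjusted p = 0.133). Clec5a read -0.09, 0.01, -0.15, 0.10 and 0.03, a difference of 0.33 ± 0.09 (adjusted p = 0.106), with the median on a dim probe in all 5 lungs. The bright probe 3 read -0.27, 0.37, -0.05, 0.80 and 0.33, overlapping with the vehicle lungs in 1 lung, a difference of 0.70 ± 0.18 (adjusted p = 0.11). Clec4d was higher by 0.80 ± 0.26 (adjusted p = 0.184) with 4 of 5 lungs above the highest vehicle lung, and Clec4n by 0.66 ± 0.36 (adjusted p = 0.472) with lungs from 1.78 to 4.20. The median of the 9 genes was 0.33, against 0 over all genes. The dose F-test called no member (0.0214% of all genes), nor did the lower doses, at each of which 0% of genes were called, with 954 genes at an unadjusted p under 0.05 at 18 µg and 1219 at 54 µg. Within slides, the Clec4d difference ran from -0.24 to 0.77, that of Msr1 from 0.39 to 0.55.

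The 2 materials were set against each other at equal dose and day. The F-test over the 3 doses called none of the 9 genes on day 1 or on day 28, where 0.161% and 0.236% of all genes were called and 1452 and 1171 had an unadjusted p under 0.05. At 162 µg on day 1 the difference of NRCWE-030 from NRCWE-025 was 0.50 for Clec4d (95% interval -0.04 to 1.03), 0.55 for Clec4n (-0.05 to 1.14), 0.22 for Msr1 (-0.24 to 0.69) and 0.12 for Clec5a (-0.08 to 0.32), with limma adjusted p between 0.831 and 0.915. In that pair the smallest adjusted p over all 18656 genes was 0.419. For the first 2 genes these intervals include both no difference and a difference as large as most of the response itself. At 54 µg on day 28 Marco, the collagenous scavenger receptor of alveolar macrophages, was 0.71 ± 0.27 higher with NRCWE-030 (95% interval 0.16 to 1.26) and not called (limma adjusted p = 0.478).

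By day 28 no member was called for either material at any dose, and the lowest limma adjusted p among them was 0.316. The share of all genes called was 0.118% at 18 µg, 0.0536% at 54 µg and 0.0965% at 162 µg of NRCWE-030, and 0.059%, 0.0268% and 0.0161% for NRCWE-025. The dose F-tests called 0.102% and 0.0375% of genes, and no member. At an unadjusted p under 0.05 limma gave 1401 genes for NRCWE-030 at 162 µg and 1349 for NRCWE-025. As gene values, no member was free of overlap with the vehicle lungs at 162 µg. Of all genes, 2.11% were for NRCWE-030 and 2.28% for NRCWE-025. The bright probe 3 of Clec5a, taken alone, was free of overlap there for both materials, as given below.

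Clec4n had the largest day 28 difference at 162 µg of NRCWE-030 among the genes, 0.91 ± 0.29 (95% interval 0.31 to 1.51, limma adjusted p = 0.389). The treated lungs read 2.63, 3.44, 3.06, 2.16 and 3.63, and the vehicle lungs 1.83, 2.21, 2.10, 1.93 and 2.31, so that 4 of 5 lay above all vehicle lungs. With slide as a fixed term it was called at 162 µg (1.06, adjusted p = 0.03) and at 54 µg (0.98, adjusted p = 0.0403), and within the 3 slides that held both groups it was higher by 0.75 to 1.34. Among single probes, the bright probe 3 of Clec5a differed by 1.33 ± 0.29 at 162 µg (adjusted p = 0.119, limma over all probes). Its treated lungs read 0.18, 1.14, 0.72, -0.16 and 1.56, all above the vehicle lungs at -0.70, -0.63, -0.66, -0.51 and -0.70. For NRCWE-025 at 162 µg on day 28 that probe differed by 0.81 ± 0.23 (adjusted p = 0.475). Its lungs there read 0.90, 0.50, -0.26 and -0.47, again all above the vehicle lungs. At 54 µg of NRCWE-030 they read 1.13, 1.01, 0.43, -0.35 and -0.23, above the vehicle lungs as well. The share of all probes separated in this way was not counted. The day 28 differences of Msr1 were 0.34 ± 0.26 with NRCWE-030 (95% interval -0.21 to 0.89) and -0.11 ± 0.20 with NRCWE-025 (-0.52 to 0.30).

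Other receptors of uptake were read in the same lungs. Olr1, the lectin-like receptor for oxidised LDL, read 0.61, 0.73, 0.51, 0.45 and 0.81 at 162 µg of NRCWE-030 and 0.37, 0.35, 0.59, 0.29 and 0.12 in vehicle lungs, a difference of 0.28 ± 0.09. For Cd36 it was 0.35 ± 0.12 and for Mrc1 0.43 ± 0.15. The lungs overlapped in each, with 3 of 5 treated lungs above all vehicle lungs for Olr1 and Cd36 and 4 of 5 for Mrc1. Their limma adjusted p lay between 0.451 and 0.465, while each 95% interval, not adjusted for the number of genes, was above 0. Olr1 was well above background in 2 of these 5 vehicle lungs and in all 5 treated ones. For Olr1 and Mrc1 the reference was near the floor as well. Clec4d lay on the other side: its day 28 differences were below 0 at each dose of both materials, between -0.30 and -0.83. At 54 µg of NRCWE-025 (-0.83 ± 0.25, limma adjusted p = 0.438) and at 18 µg of NRCWE-030 (-0.78 ± 0.28, 0.364), 4 of 5 lungs were below the lowest vehicle lung. All these differences share the same vehicle lungs, with a Clec4d mean of -1.06 on day 28 against -1.90 on day 1. With NRCWE-025 the day 28 means of Clec4e, Msr1 and Mrc1 were slightly below vehicle at each dose, within the SD of the vehicle lungs. At 18, 54 and 162 µg they were -2.80, -2.98 and -2.94 for Clec4e, against -2.74 in vehicle lungs. For Msr1 they were -1.11, -1.14 and -1.19 against -1.09, and for Mrc1 3.33, 3.30 and 3.39 against 3.45. The Mrc1 difference kept its sign in 6, 6 and 5 of 11 alternative analyses at these doses.

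**Figure D3:**
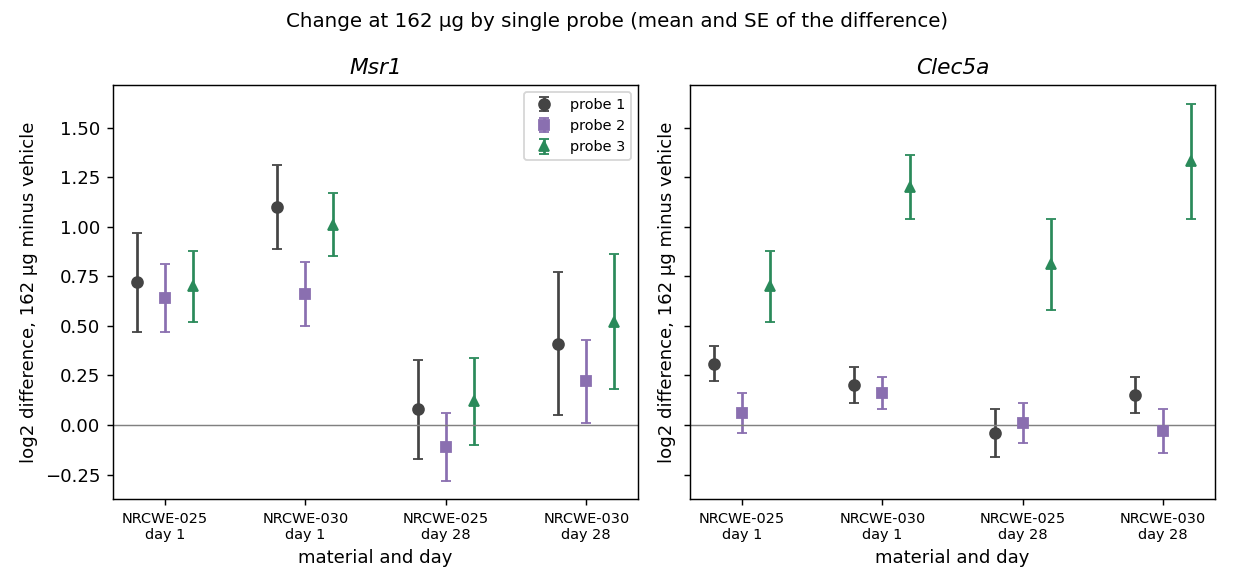
Log2 difference between 162 µg and vehicle (mean and SE) for each of the 3 probes of Msr1 and of Clec5a, by material and day. The Msr1 probes move together on day 1, while for Clec5a probe 3, the bright one, lies above probes 1 and 2, which were well above background on 10 arrays and 1 array of 69.

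Clec4d was the single gene of the set called for a different response to 162 µg of NRCWE-030 between the days, with a day 1 minus day 28 effect of 1.60 ± 0.38 (95% interval 0.85 to 2.36, limma adjusted p = 0.0454), among 0.198% of all genes called. That contrast rests on the vehicle lungs of both days as well. On day 28 these read -1.10, -0.42, -0.53, -1.51 and -1.74, on average 0.83 ± 0.27 above those of day 1 (adjusted p = 0.318), and the treated lungs read -1.84, -0.76, -1.67, -2.01 and -0.54. The treated means were -0.59 ± 0.39 (SD, n = 5) on day 1 and -1.36 ± 0.67 on day 28, and the vehicle means -1.90 ± 0.28 and -1.06 ± 0.58. The call was lost in 6 of 10 alternative analyses, with adjusted p up to 0.218, and without any 1 of 24 of the 69 arrays. For NRCWE-025 the Clec4d contrast was 1.36 ± 0.39 and not called (adjusted p = 0.135), and no member was called there, against 0.059% of genes and 1966 at an unadjusted p under 0.05. Between the vehicle lungs of day 28 and day 1 no member was called by limma (0.0375% of genes, 1594 at an unadjusted p under 0.05).

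**Figure D4:**
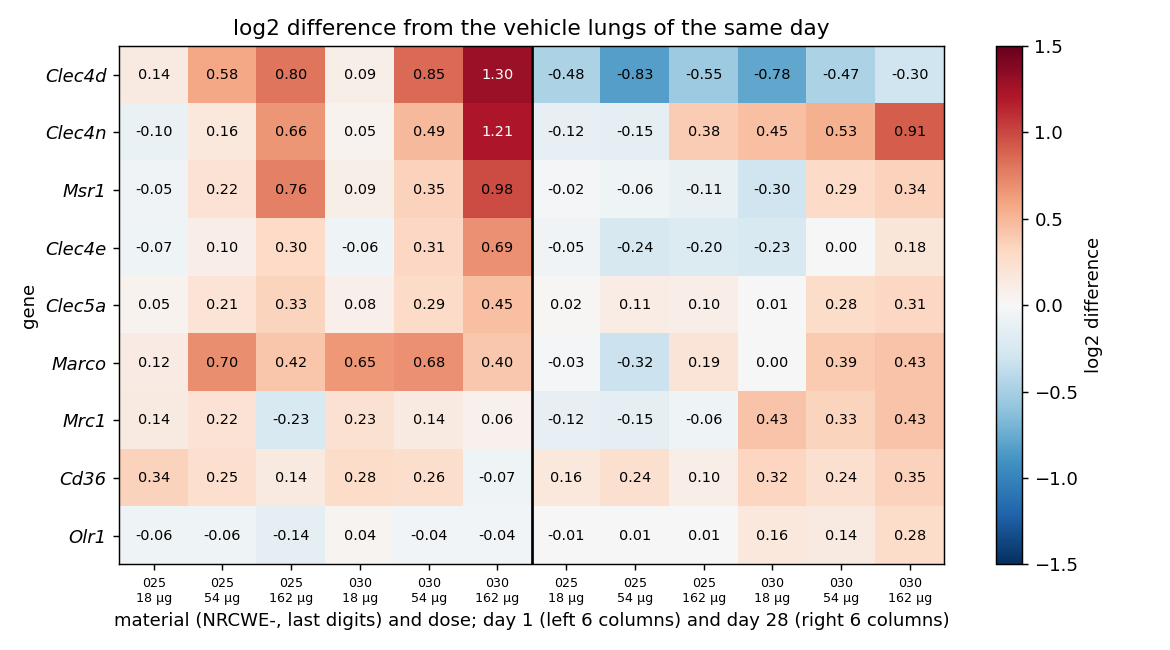
Log2 difference from the vehicle lungs of the same day for the 9 genes (rows) at each material and dose in µg (columns, NRCWE-025 as 025 and NRCWE-030 as 030), day 1 left of the line and day 28 right. Clec4d, Clec4n and Msr1 reach 1.30, 1.21 and 0.98 at 162 µg of NRCWE-030 on day 1, and Clec4d is below 0 in each day 28 column.

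The remaining receptors, Marco, Mrc1, Cd36 and Olr1, were called in no comparison. Marco had group means from 4.64 to 5.94 with a median within-group SD of 0.38. The highest was at 54 µg of NRCWE-025 on day 1, against 5.24 in the vehicle lungs of that day. On day 1 it was 0.65 ± 0.27 above vehicle at 18 µg of NRCWE-030, 0.68 ± 0.27 at 54 µg and 0.40 ± 0.27 at 162 µg, where the lungs spread from 4.52 to 6.31, and none of these was called. On day 28 the Marco means were 4.95 in vehicle lungs and 4.95, 5.34 and 5.39 at 18, 54 and 162 µg of NRCWE-030. Mrc1 group means ran from 3.29 to 3.88, with the highest 3 in the NRCWE-030 groups of day 28. There the differences from vehicle were 0.43, 0.33 and 0.43 at 18, 54 and 162 µg, again not called. Cd36 spanned 0.53 between its lowest and highest group means, both of them at 162 µg of NRCWE-030, on day 1 and day 28. Olr1 spanned 0.39 and was above background on 2 to 5 arrays of each group. Its highest group mean, 0.62 ± 0.15 (SD, n = 5), was that of NRCWE-030 at 162 µg on day 28, the group in which all 5 arrays measured it.

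**Figure D5:**
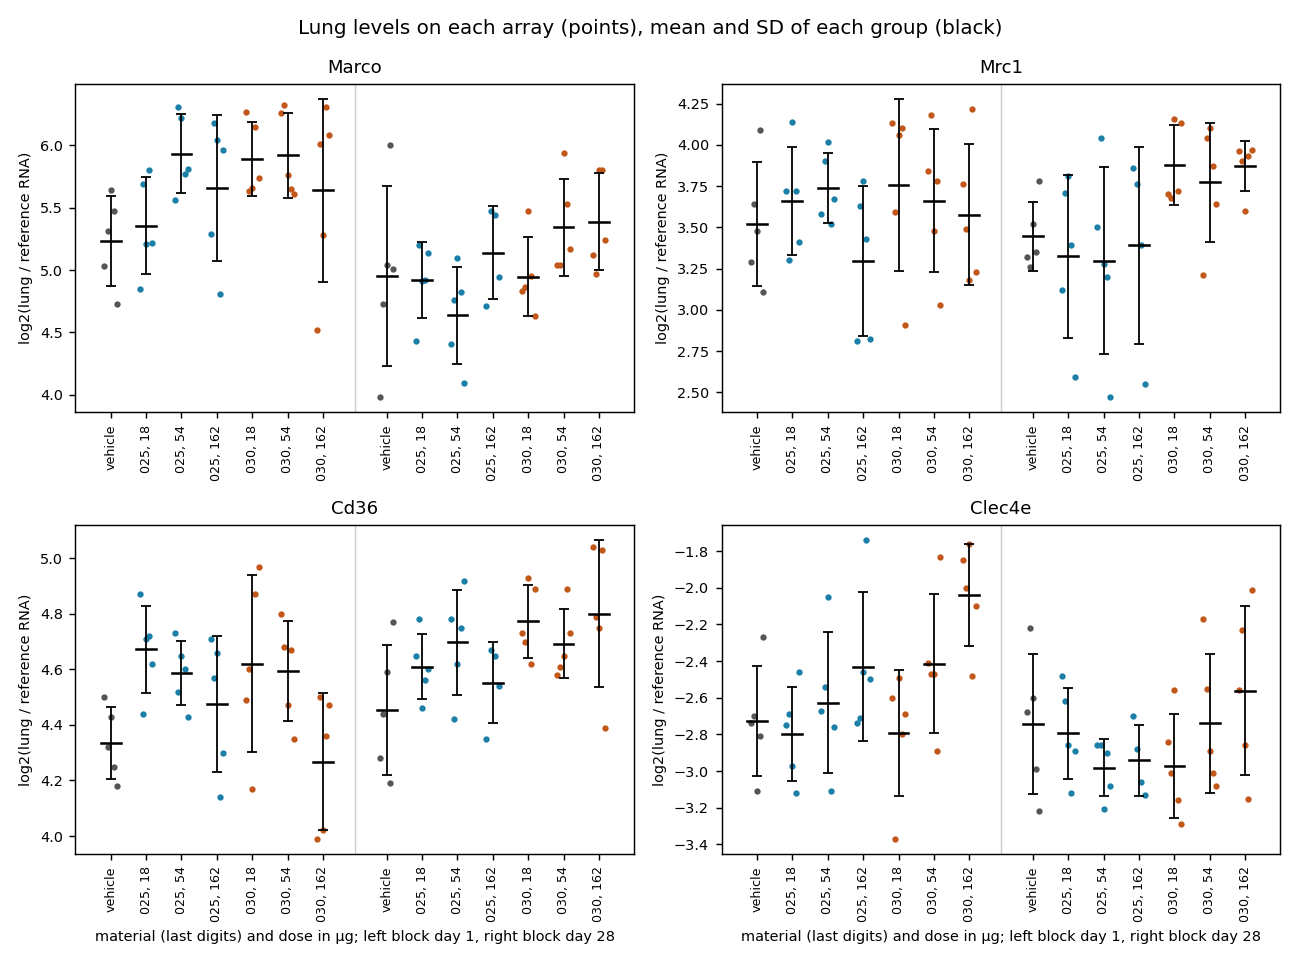
Log2 ratio of lung to reference RNA on each array (points) with group means and SD (black) for Marco, Mrc1, Cd36 and Clec4e, in the same groups and order as the plot of the called genes. None of these genes had a group at 162 µg free of overlap with its vehicle lungs.

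Genes of the same pathway were read at 162 µg of NRCWE-030 on day 1, the comparison in which 4 of the 9 receptors were called. Of all genes, 1.71% were called there and 1.23% were called and higher. The lists, too, were chosen with earlier results of these data known, so a count above these shares is no test of them. Of 18 measured genes that carry lectin receptor signals, 3 were called, each higher: Fcer1g, the Fc receptor gamma chain (0.64 ± 0.16, limma adjusted p = 0.0419), the guanine exchange factor Vav1 (0.62 ± 0.16, 0.0478) and the transcription factor Cebpb (0.55 ± 0.14, 0.0478). Of 14 cytokine and enzyme genes that these receptors are known to induce, 5 were called, each higher. They were the chemokines Ccl2 (2.09 ± 0.45), Ccl4 (2.10 ± 0.46) and Ccl3 (1.28 ± 0.30) and the cytokines Il1b (1.27 ± 0.26) and Il6 (1.21 ± 0.29). Of 30 other C-type lectins 3 were called. Clec4a2, which lies in the same chromosome 6 cluster as Clec4n, rose by 0.74 ± 0.16, the early activation antigen Cd69 by 0.60 ± 0.11, and the dendritic cell and macrophage lectin Cd209b changed by -0.53 ± 0.09. Of 16 other scavenger receptors none was called, the smallest adjusted p being those of Scarb1 (0.54, 0.0597), Scarb2 (0.41, 0.0614) and Cd14 (1.03, 0.1). The medians of the 4 lists were 0.06, 0.76, 0.01 and 0. In each of these 4 lists no gene was called by limma for NRCWE-025 at 162 µg on day 1 or for either material at 162 µg on day 28. Few genes of any kind were called there: 0.209% for NRCWE-025 on day 1, and on day 28 0.0965% for NRCWE-030 and 0.0161% for NRCWE-025.

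Markers of the cells that carry these receptors were read beside them. Of all genes, 1.71% were called at 162 µg of NRCWE-030 on day 1 and 0.0965% on day 28. At 162 µg of NRCWE-030 on day 1, 1 of 9 neutrophil markers was called, Csf3r, the receptor of granulocyte colony-stimulating factor, at 1.25 ± 0.20 (limma adjusted p = 0.00261), while S100a8 (0.30), S100a9 (-0.19) and Ngp (-0.04) were not. The mean of the list ran from 1.84 to 2.42 in those lungs and from 1.60 to 2.21 in vehicle lungs. Of the 6 monocyte markers 1 was called, Itgam, higher by 0.46 ± 0.10 (limma adjusted p = 0.0197), with list means of 1.39 to 1.81 against 1.26 to 1.54. None of 6 alveolar and none of 6 interstitial macrophage markers was called, and their list means were 2.54 to 3.76 against 3.11 to 3.73 and 2.86 to 3.36 against 2.57 to 3.22. On day 28 the neutrophil list stood at 1.79 to 2.63 in the vehicle lungs, in which Clec4d was high too, and at 1.46 to 1.95 at 162 µg of NRCWE-030, where Mmp9 was the marker called, and lower. Of the 9 neutrophil markers 7 were well above background on every array of these groups, the others being Ngp and Camp. The part of such cells in the receptor values was not tested. All 5 lung markers, Sftpc and Sftpb among them, were well above background on the 69 arrays, with list means of 4.93 to 5.80 at 162 µg of NRCWE-030 on day 1 and of 5.22 to 6.14 in vehicle lungs. Fat and heart muscle lists varied widely within groups, from 0.76 to 4.14 and from 0.96 to 5.02 in the vehicle lungs of day 1, against 0 to 2.25 and 0.19 to 3.70 at 162 µg of NRCWE-030, and no gene of either was called at 162 µg on either day. Of the 6 capillary endothelium markers, Ednrb was lower at 162 µg of NRCWE-030 on day 1 (-0.58 ± 0.14, adjusted p = 0.0364).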

How the data were processed

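Gene expression was measured in 69 mouse lungs on 2-colour Agilent arrays read with Feature Extraction 11.0.1.1. The authors deposited scanner files with intensity values per spot and channel and with log10 ratios, and a table of their own normalized log2 values. The array design names genome build mm9. The set of genes and the lists were chosen with earlier results of these data known.

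Local backgrounds that the scanner software had marked as outliers were replaced by the median of the unmarked ones of that array and channel, and normexp (offset 50) and loess within arrays were applied in limma 3.58.1 (R 4.3.3). Control spots had weight 0 in the loess. Values of the 43379 non-control spots were reduced to 41174 probes as medians over spots, and to genes as medians over probes. RefSeq symbols (GRCm38.p6) were matched by unversioned accession for 66.7% of probes, and 18656 genes with a value on every array were tested. Moderated F-tests and contrasts were fitted per material and day on the vehicle and 3 dose groups, and in 1 fit of 14 groups for materials and days. They were two-sided, with Benjamini-Hochberg adjustment over all genes and a threshold of 0.05. The scripts were tested on simulated data. In the lung channel 49.1% to 72.8% of spots per array were well above background and no spot was saturated. The number of arrays limits the precision. All members are described. A member is given in full where it was called or where no treated array overlapped with vehicle, and genes of other lists are named where called, or the 3 with the smallest p. The arrays correlated between 0.8514 and 0.9918, so none was a copy of another. Other background corrections, the scanner's ratios, the authors' values, scaling between arrays, a filter on dim probes, means over probes, slide and scan day as blocks, unmoderated statistics and leaving out each array were tried as alternatives. Figures were drawn with matplotlib 3.10.9.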

Additional observations from a re-analysis of the deposited data

Results flagged for a closer look

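Of 126 combinations of gene and group, 5 held a lung whose gap to its nearest neighbour was large for the range of its group by Dixon's test. Chance alone flags about 1 group in 20, so 5 of 126 is no more than that rate. Olr1 was high in replicate 2 of NRCWE-030 at 54 µg on day 1 (0.87, the others 0.07 to 0.26) and in replicate 2 of that dose on day 28 (0.78, the others 0.34 to 0.47). Clec4e was high in replicate 4 of NRCWE-025 at 162 µg on day 1 (-1.74, the others -2.74 to -2.46). Clec4n was low in replicate 1 of the vehicle lungs of day 1 (1.47, the others 2.27 to 2.53). Mrc1 was low in replicate 3 of NRCWE-030 at 162 µg on day 28 (3.60, the others 3.90 to 3.97).

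The effect of 162 µg of NRCWE-030 on Clec4d differed between day 1 and day 28 by 1.60 ± 0.38 (limma adjusted p = 0.0454, 5 arrays per group). On day 1, 5 of 5 treated lungs were above the vehicle mean, and on day 28, 2 of 5. The vehicle means themselves were -1.90 on day 1 and -1.06 on day 28. The call was lost in 24 of 69 fits that left out 1 array and in alternatives given below.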

How the results depend on the processing

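At 162 µg of NRCWE-030 on day 1, the 4 called genes were the same 4 under 8 of 11 alternatives and were joined by Clec4e with slide as a random term. With slide as a fixed term 1 was called and with scan day as a fixed term 0. The filter on dim probes kept any probe well above background on every array of at least 1 group. Probe 2 of Msr1 passed it only through NRCWE-030 at 162 µg on day 1. The values of Msr1 were therefore unchanged by the filter, which is no separate support for that gene. Without 1 array the count ran from 3 to 5. Clec4d, Clec4n and Msr1 were called without any 1 of the 20 arrays, and Clec5a in 12 of 20 such fits, lost without vehicle replicates 2, 3, 4 or 5 or treated replicates 1, 2, 3 or 5. The 3 genes called by the dose F-test became 1 with slide as a fixed term, 5 with it as a random term, 0 with scan day as a fixed term and 1 with unmoderated statistics, became 4 with Clec5a added under 5 others, and without 1 array they ran from 1 to 4. On day 28 with NRCWE-030 the count of 0 became 1, Clec4n, with slide as a fixed term, at 162 µg and in the F-test. The Clec4d day contrast, 1 gene, became 0 with backgrounds as scanned, with none subtracted, with the authors' values, with scaling between arrays and with slide or scan day as fixed terms. Without 1 array it ran from 0 to 1, and it was lost without vehicle replicates 1 to 4 of day 1 or 1 to 3 of day 28, without replicates 1, 2, 3 or 5 (day 1) or 1, 3 or 4 (day 28) of NRCWE-030 at 162 µg, and without any of 10 arrays of other groups, through the shared spread. At 54 µg of NRCWE-030, Clec4d was called on day 1 with slide as a random term (0.87) and Clec4n on day 28 with it as a fixed term (0.98). Leaving out 1 array was not run for single genes at 18 and 54 µg. For NRCWE-025 (dose F-tests, 162 µg and days), between materials and between vehicle lungs the counts were 0 under every alternative run and without any 1 array. No called change reversed. With the scanner's own ratios Msr1 was 2.31 and Clec5a 1.33 at 162 µg of NRCWE-030 on day 1, and with dim probes left out Clec5a was 1.20. The cause of these differences was not tested. No paired analysis was possible because the labels number the samples once over the whole series and share no replicate number between groups. Depth has no counterpart on arrays; signal over background limits Olr1, probe 2 of Msr1 and probes 1 and 2 of Clec5a.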
